A study of Mus musculus with 6 samples.

Results

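The transcripts described here are those of the mouse mitochondrial genome, taken as every row of the expression table whose gene symbol starts with mt-. There were 37 such rows among 54446, of which 13 were protein genes, 2 were ribosomal RNA (rRNA) genes and 22 were transfer RNA (tRNA) genes. RNA sequencing had been done on macrophages differentiated in culture from the bone marrow of C57BL/6 mice that were 6 weeks old. One group of cells had received PBS, a buffer, and the other groups had received KN93, a small-molecule inhibitor of calcium/calmodulin-dependent protein kinases, at 5 µM or 10 µM. There were 2 samples in each of the 3 groups. The labels name no genetic change in any group and no duration of treatment. They do not say whether replicates were separate mice or cultures, so the p-values rest on the spread between these replicates alone, and that spread may be technical.

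The mitochondrial genome is a small circle, read from both strands into long transcripts that are then divided into messenger, ribosomal and transfer RNAs. Its protein genes all encode membrane subunits of the respiratory chain and of ATP synthase, the enzymes that carry electrons to oxygen and use the resulting proton gradient to make ATP. Every other protein of these complexes, and every protein that copies, transcribes, cuts, stabilizes or translates mitochondrial RNA, is encoded in the nucleus. In macrophages these complexes are known both for ATP supply and for the production of reactive oxygen during activation.

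Levels are given in FPKM, the authors' deposited unit, which counts sequenced fragments relative to gene length and to the total of the library. In these libraries 1 fragment on a gene of 1 kilobase was worth 0.0352 to 0.0414 FPKM, worked out from the smallest steps between values. Macrophage markers fixed in a list were detected at 1 FPKM or more for 9 of 9 genes in every sample, and their summed level was 18490 and 17958 FPKM in PBS, 14809 and 14353 with 5 µM and 8369 and 9218 with 10 µM. Lyz2, lysozyme, made up most of that sum. The other 8 genes summed to 3090.2 and 2906 FPKM in PBS, 3087 and 3141 with 5 µM and 2519.7 and 2650.1 with 10 µM. That second sum joins genes that moved in opposite directions. Adgre1 was at 1049 and 913 FPKM in PBS and 343 and 339 with 10 µM. Cd68 was at 842 and 861 FPKM in PBS and 1396 and 1511 with 10 µM. Of the 9 markers, 5 were called lower and 1 higher at 10 µM against PBS, beside 22% and 28.5% of all tested genes. Markers of stromal cells, connective tissue cells of the marrow, summed to 2017 and 2064 FPKM in PBS, 555 and 679 with 5 µM and 391 and 414 with 10 µM. At 10 µM, 9 of the 11 tested were called lower, beside 22% of all tested genes. Neutrophil markers summed to 136 and 137 FPKM in PBS, 63.3 and 66.1 with 5 µM and 14.6 and 17.4 with 10 µM. Of these 11 markers, 5 were under 1 FPKM in every sample and were not tested. At 10 µM, 6 of 6 tested were called lower, beside the same 22%. Markers of lymphocytes, erythroid cells and dendritic cells were all under 1 FPKM in every sample. The stromal and neutrophil levels moved with dose in the same samples as the mitochondrial transcripts, and their part in the results below was not tested.

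Some of the mitochondrial genes have near-identical copies in nuclear DNA, and 1 stretch that holds 7 of them is set apart below. Other annotated copies lie elsewhere and were not set apart. On chromosome 2, Gm13340 matches mt-Co1 over 1545 bases at 97.6% identity, and Gm13339 matches mt-Nd2 over 510 bases at 96.7%. On chromosome 4, Gm11408 and Gm11410 match mt-Nd6 and mt-Cytb at 93.6% and 92.8%, and both were at 0 in every sample. On chromosome 13, Gm4076 matches part of mt-Nd5 at 90.4%. In the GENCODE annotation of the mouse genome build GRCm38, a stretch of chromosome 1, chr1:24611535-24616197, carries 7 annotated pseudogenes in a row, each a copy of a mitochondrial gene, and together they match chrM:6381-11042. Over 4149 aligned bases the 7 copies differed from the mitochondrial genes at 7 positions, with identities of 98.8% to 100%. By its ends on chrM, the stretch spans 11 of the 37 genes whole and parts of mt-Co1 and mt-Nd4. Of the 11, 6 are protein genes (mt-Co2, mt-Atp8, mt-Atp6, mt-Co3, mt-Nd3 and mt-Nd4l) and 5 are tRNA genes. The other 24 genes lie outside the stretch. Only the annotated copies were compared, so whether chromosome 1 also holds mt-Atp8 and these tRNA genes was not tested. The opening bases of mt-Nd4l and of its copy Gm10222 are shown because they are identical letter for letter.
mt-Nd4l: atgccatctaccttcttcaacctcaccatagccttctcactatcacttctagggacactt
Gm10222: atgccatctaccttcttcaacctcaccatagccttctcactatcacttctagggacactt
The opening bases of mt-Nd3 and its copy Gm28438 hold their 1 difference, in capitals, which is T3C counted from 1 at the 5′ end of the mitochondrial gene.
mt-Nd3: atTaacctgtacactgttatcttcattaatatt
Gm28438: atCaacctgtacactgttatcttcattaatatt
The copy of mt-Co1, Gm29216, begins inside the gene, and its 6 differences fall at that edge, shown in capitals as T1056A, C1057T, A1059G, A1060G, C1062A and A1066T in the same counting.
mt-Co1: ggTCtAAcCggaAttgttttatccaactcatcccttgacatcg
Gm29216: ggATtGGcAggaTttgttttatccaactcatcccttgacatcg

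Among the protein and rRNA genes, those wholly inside the copied stretch were the ones whose replicates differed most. mt-Nd4l, a complex I subunit, was at 3.25 and 121 FPKM in PBS, 10.9 and 65.4 with 5 µM and 35.4 and 18.4 with 10 µM, so the PBS samples differed 37.2-fold. Its neighbour mt-Nd3, also of complex I, was at 3.95 and 96.2 FPKM in PBS, 9.38 and 50.5 with 5 µM and 28.4 and 14.0 with 10 µM. For both genes the lowest and the highest of the 6 samples were PBS samples, so the groups overlapped fully. In contrast, the 7 rRNA and protein genes wholly outside the stretch differed between replicates by at most 1.25-fold in all 3 groups. The tRNA genes did not divide this way: mt-Tp, outside the stretch, differed up to 4.09-fold between replicates, and mt-Ts1, inside it, by at most 1.54-fold. Of all 31-base words in a gene, the share also found in a nuclear transcript was 100% for mt-Co2, 99.9% for mt-Co3, 99.5% for mt-Atp6, 98.9% for mt-Nd4l and 98.1% for mt-Nd3. It was 63.9% for mt-Co1 and 62.8% for mt-Nd4, 16.8% for mt-Nd5, 13.5% for mt-Nd2 and under these values for the rest, down to 0% for mt-Nd1 and mt-Rnr1. mt-Atp8 stood apart, with 7.47% of its words shared and replicates 8.93-fold apart at 5 µM. No annotated pseudogene matches mt-Atp8, and only transcripts were searched, so the gap between the chromosome 1 copies of its neighbours was not compared. That gap is 233 bases, and the gap between these neighbours in the mitochondrial genome is 230 bases. How fragments that match both places were assigned is not given in the sources used here, and the part of the copies in these differences was not tested.

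**Figure D1:**
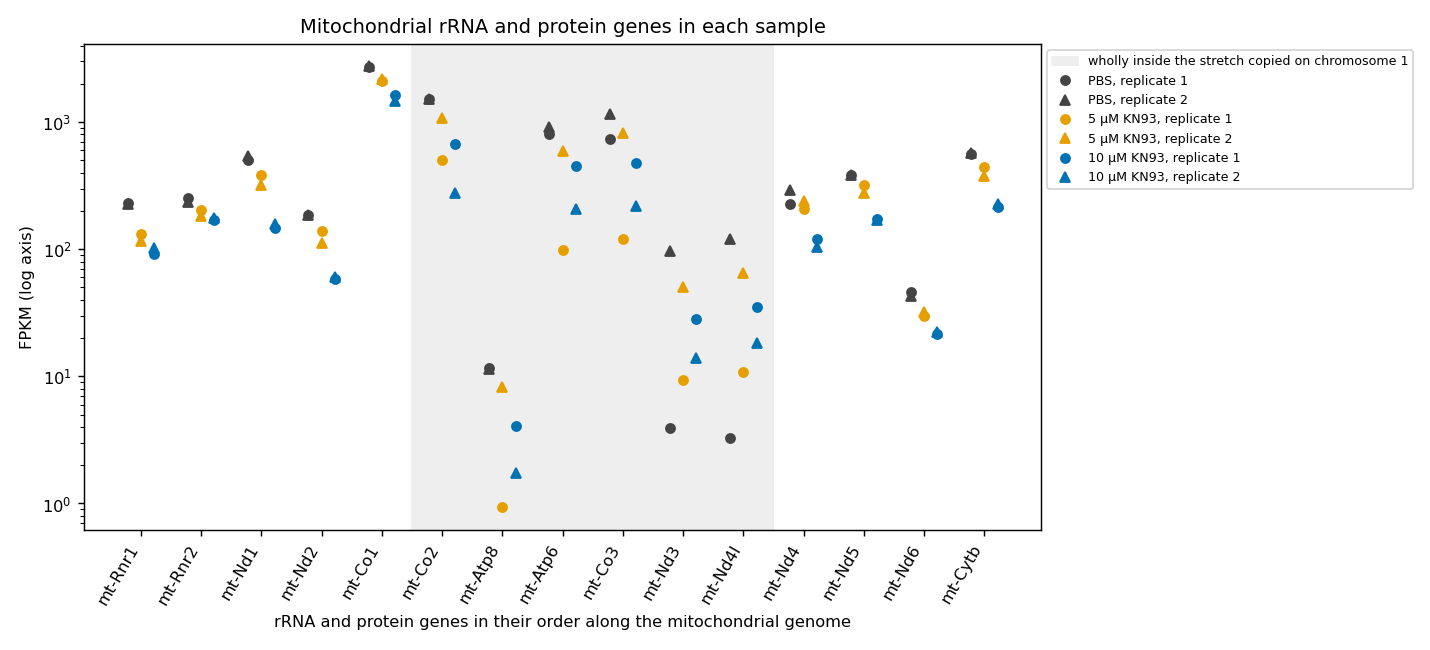
FPKM on a log axis of the 2 rRNA genes and 13 protein genes of the mitochondrial genome, in genome order, for each of the 6 samples. Circles are replicate 1 and triangles replicate 2, the grey band marks the 6 genes wholly inside the stretch copied on chromosome 1, and inside it replicates lie up to 37.2-fold apart.

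**Figure D2:**
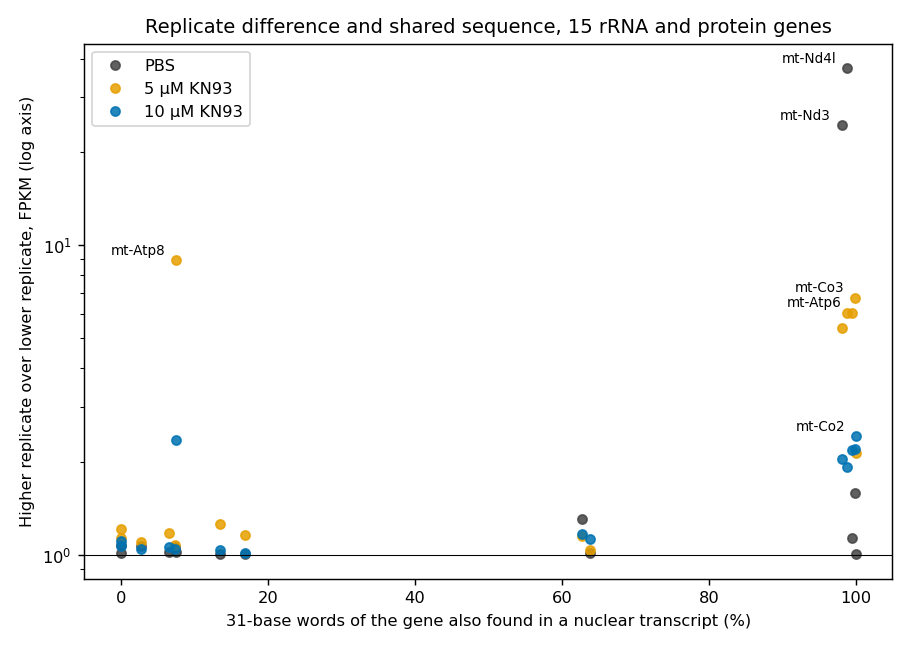
The higher replicate divided by the lower replicate of each group on a log axis, against the percentage of each gene's 31-base words found in a nuclear transcript, for 15 genes. Genes with at least 98.1% of words shared and mt-Atp8 reach ratios of 2.42 or more, while the 2 rRNA genes and the 7 other protein genes reach at most 1.30.

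Mitochondrial transcripts as a whole were lower in KN93-treated cells, and lower at the higher dose. They held 2.45% and 2.72% of the summed FPKM in PBS, 1.37% and 1.90% with 5 µM and 1.31% and 0.958% with 10 µM. The groups did not overlap, and the share at 10 µM was 0.438 times that in PBS. At 2 samples against 2, an exact two-sided permutation test cannot give a p below 0.333, which was its value for each of the 3 comparisons. Counted over the 7 rRNA and protein genes outside the copied stretch only, an alternative chosen after seeing the data, the summed level was 0.691 times PBS at 5 µM and 0.412 times PBS at 10 µM. In bulk RNA a lower level per cell cannot be told apart from fewer cells that carry the transcript.

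Of the 37 genes, 25 passed the filter of at least 1 FPKM in at least 2 samples and were tested with limma on log2(FPKM + 1): every protein and rRNA gene and 10 tRNA genes. At 5 µM against PBS, 9 of the 25 were called lower at an adjusted p under 0.05, beside 15.4% of all tested genes, and 0 were called higher, beside 15.1%. At 10 µM against PBS, 13 were called lower, beside 22% of all genes, and 0 higher, beside 28.5%. Between the doses, 9 were called lower at 10 µM than at 5 µM, beside 8.5%, and 0 higher, beside 11.4%. The counts include mt-Tq, which passed the filter only through its PBS samples, and without it 8 of 24 and 12 of 24 were called lower than PBS at 5 µM and 10 µM. The count of higher calls was also 0 at an unadjusted p under 0.05 in each of these comparisons, and it was 0 with voom on the recovered fragments. The median log2 change of the 25 was -0.47, -1.02 and -0.46 in the 3 comparisons, beside 0.01, 0.05 and 0.04 over all tested genes. Without mt-Tq the medians were -0.45, -1.01 and -0.46. Counted by samples, 15 of the 25 were lower in both 5 µM samples than in both PBS samples, beside 33% of all genes. At 10 µM, 17 were lower in both samples than in both PBS samples, beside 32.6%. Both counts include mt-Tq, whose PBS samples alone brought it through the filter. Between the doses, 11 were lower in both 10 µM samples, beside 26%. None of the 25 was higher in both samples of a dose than in both PBS samples, beside 37% of all genes at 5 µM and 44.2% at 10 µM.

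The complex I genes of the mitochondrial genome encode the proton-pumping membrane arm of NADH dehydrogenase, and those outside the copied stretch were called lower at both doses. mt-Nd1 (chrM:2751-3707) was at 504 and 542 FPKM in PBS, 387 and 320 with 5 µM and 147 and 157 with 10 µM. Each dose step separated the groups without overlap, and the change at 10 µM was -1.78 ± 0.10 on the log2 scale (standard error, limma adjusted p = 0.00011 at 10 µM and 0.0111 at 5 µM). mt-Nd2 (chrM:3914-4951) was at 186 and 187 FPKM in PBS, 140 and 112 with 5 µM and 58.4 and 60.8 with 10 µM. Its log2 change was -0.57 at 5 µM and -1.63 at 10 µM, again with no overlap between any groups. mt-Nd5 (chrM:11742-13565), the longest gene of the set, was at 381 and 385 FPKM in PBS, 322 and 279 with 5 µM and 174 and 171 with 10 µM, a log2 change of -0.35 and then -1.15. mt-Nd6 (chrM:13552-14070) is the only protein gene on the opposite strand and overlaps the end of mt-Nd5. It was at 45.8 and 43.1 FPKM in PBS, 29.7 and 31.9 with 5 µM and 21.4 and 22.4 with 10 µM, with log2 changes of -0.52 and -0.99. The ratio of mt-Nd5 to mt-Nd6 FPKM ran from 7.63 to 10.9 over the 6 samples, with overlap between 5 µM and PBS and the 10 µM samples lowest. mt-Nd4 (chrM:10167-11544), which lies partly in the copied stretch, was at 225 and 293 FPKM in PBS, 207 and 239 with 5 µM and 121 and 104 with 10 µM. Its 5 µM samples overlapped the PBS samples and did not pass the test (log2 change -0.21, adjusted p = 0.344), while at 10 µM it was called lower, by a log2 change of -1.19 ± 0.15. mt-Nd3 and mt-Nd4l did not pass in any comparison, with standard errors of 1.47 and 1.63 on the log2 scale.

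mt-Cytb (chrM:14145-15288) encodes cytochrome b, the only mitochondrially encoded subunit of complex III. It was at 563 and 575 FPKM in PBS, 445 and 377 with 5 µM and 216 and 229 with 10 µM, with no overlap between groups. The log2 change was -0.47 ± 0.09 at 5 µM (adjusted p = 0.0130) and -1.35 ± 0.09 at 10 µM (adjusted p = 0.000163).

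Complex IV, cytochrome c oxidase, takes its catalytic core from mt-Co1, mt-Co2 and mt-Co3, and mt-Co1 and mt-Co2 were the most abundant mitochondrial transcripts in PBS. mt-Co1 (chrM:5328-6872) was at 2723 and 2759 FPKM in PBS, 2098 and 2180 with 5 µM and 1640 and 1457 with 10 µM, the highest of all mitochondrial genes in every sample. Its replicates agreed within 1.13-fold in each group, the groups did not overlap, and its log2 change was -0.36 ± 0.08 at 5 µM and -0.83 ± 0.08 at 10 µM. mt-Co2 (chrM:7013-7696), wholly inside the copied stretch, was at 1524 and 1530 FPKM in PBS, 503 and 1072 with 5 µM and 669 and 277 with 10 µM. All treated samples were below the PBS samples, but the doses overlapped, and only the 10 µM comparison passed (log2 change -1.82 ± 0.50, adjusted p = 0.0265). mt-Co3 (chrM:8607-9390) was at 732 and 1158 FPKM in PBS, 120 and 814 with 5 µM and 480 and 218 with 10 µM. Its 10 µM samples were both below PBS, its 5 µM samples lay on either side of the lower PBS sample, and no comparison passed (log2 change -1.50 ± 0.90 at 10 µM).

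The ATP synthase genes mt-Atp6, the proton channel subunit, and mt-Atp8, a small accessory subunit, overlap each other in the genome and lie wholly inside the copied stretch. mt-Atp6 (chrM:7927-8607) was at 810 and 921 FPKM in PBS, 98.1 and 594 with 5 µM and 455 and 208 with 10 µM. mt-Atp8 (chrM:7766-7969) was at 11.7 and 11.4 FPKM in PBS, 0.930 and 8.31 with 5 µM and 4.06 and 1.73 with 10 µM. For both genes the treated samples were all below the PBS samples, and for both the lowest sample was the same 5 µM sample. Neither passed the test, with log2 changes of -1.83 ± 0.84 and -1.56 ± 0.72 at 5 µM and -1.49 ± 0.84 and -1.76 ± 0.72 at 10 µM. mt-Atp8 is printed whole because it had the lowest mean of the 13 protein genes in PBS (mt-Nd4l and mt-Nd3 were below it in PBS replicate 1) and, unlike its neighbours, shared few of its 31-base words with a nuclear transcript. The capitals mark the 43 bases it shares with the start of mt-Atp6.
mt-Atp8: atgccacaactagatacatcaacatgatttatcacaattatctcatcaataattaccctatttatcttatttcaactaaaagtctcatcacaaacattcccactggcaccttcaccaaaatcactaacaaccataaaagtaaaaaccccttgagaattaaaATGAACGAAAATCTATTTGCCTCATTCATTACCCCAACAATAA

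In both KN93 groups the 6 protein genes of the copied stretch differed between replicates in 1 direction. The 5 µM replicate 1 sample was below its partner in all 6 protein genes of the stretch, by 2.13-fold for mt-Co2 up to 8.93-fold for mt-Atp8, and the 10 µM replicate 2 sample was below its partner in all 6, by 1.92-fold to 2.42-fold. The tRNA gene mt-Ts1 of the same stretch was instead higher in that 10 µM sample, at 102 against 83.9 FPKM. In PBS, replicate 1 was lower by 24.4-fold in mt-Nd3, 37.2-fold in mt-Nd4l and 1.58-fold in mt-Co3, while mt-Co2 and mt-Atp8 differed by at most 1.02-fold. Neighbouring genes kept nearer ratios to each other: mt-Co3 over mt-Atp6 ran from 0.904 to 1.37 in the 6 samples and mt-Nd4l over mt-Nd3 from 0.823 to 1.32. Over the 6 protein genes inside the stretch, the summed FPKM was 3085 and 3838 in PBS, 743 and 2604 with 5 µM and 1672 and 737 with 10 µM. The treated groups therefore overlapped each other. Over the 7 rRNA and protein genes outside, the summed FPKM was 2163 and 2196 in PBS, 1658 and 1420 with 5 µM and 878 and 919 with 10 µM. These groups did not overlap. All 7 rRNA and protein genes outside the stretch were called lower at 5 µM and at 10 µM against PBS, and 1 of the 6 protein genes inside it was called at 10 µM and 0 at 5 µM (also 0 at an unadjusted p under 0.05).

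**Figure D3:**
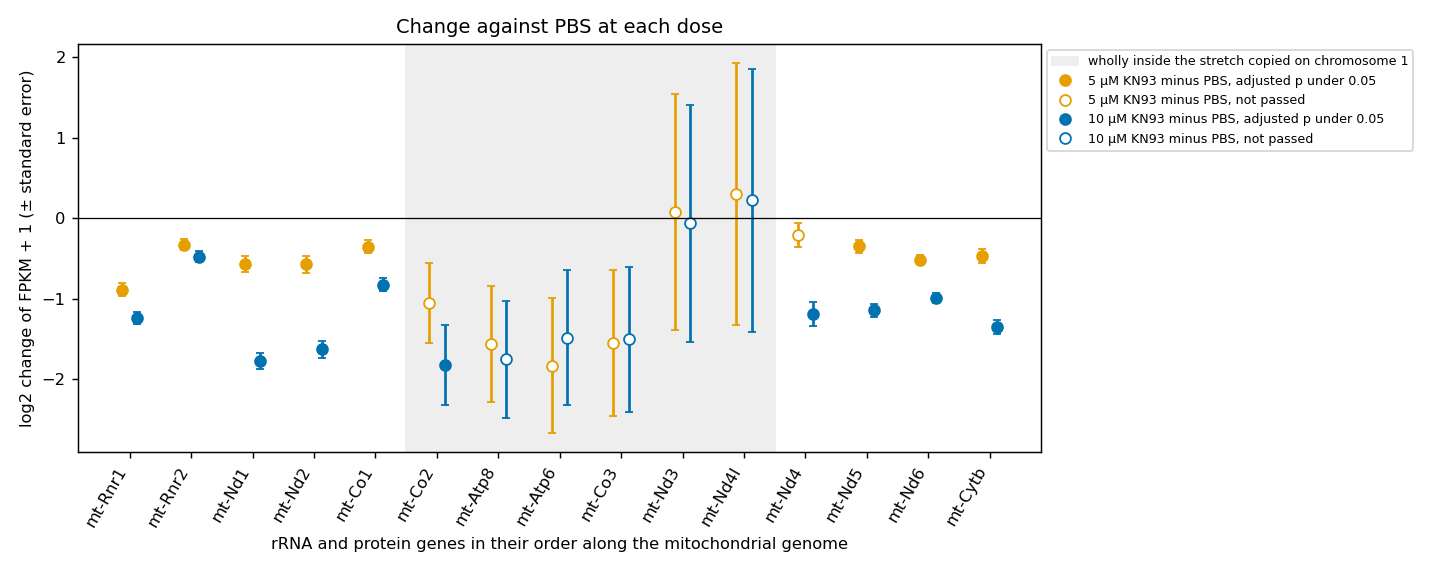
Log2 change of FPKM + 1 against PBS (points) with its standard error (bars) for the 2 rRNA and 13 protein genes in genome order, at 5 µM and at 10 µM. Filled points passed at an adjusted p under 0.05, the grey band marks the copied stretch, and outside it the errors are small and the 10 µM change is below the 5 µM change for each gene.

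The 2 rRNAs of the mitochondrial ribosome changed by different amounts. mt-Rnr1 (chrM:70-1024), the small-subunit rRNA, was at 231 and 228 FPKM in PBS, 131 and 116 with 5 µM and 91.8 and 102 with 10 µM. The fall was already 46.1% at 5 µM and 57.9% at 10 µM, with log2 changes of -0.89 ± 0.08 (adjusted p = 0.00126) and -1.24 ± 0.08 (adjusted p = 0.000153). mt-Rnr2 (chrM:1094-2675), the large-subunit rRNA that follows it on the same strand with 1 tRNA gene between them, was at 252 and 235 FPKM in PBS, 202 and 184 with 5 µM and 170 and 177 with 10 µM. Its groups also did not overlap, and its log2 changes were -0.33 ± 0.07 and -0.48 ± 0.07, called at both doses but not between them (adjusted p = 0.175). The mt-Rnr2 to mt-Rnr1 ratio was therefore 1.09 and 1.03 in PBS, 1.54 and 1.58 with 5 µM and 1.85 and 1.75 with 10 µM. Every sample of a higher dose had a higher ratio than every sample of a lower dose, and the exact two-sided permutation p was 0.333 for each pair of groups, the lowest that 2 against 2 allows. This ratio and the ratios of the next paragraph were chosen after the values were seen.

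Several other ratios between mitochondrial genes were shifted at 10 µM. mt-Nd1 lies directly after mt-Rnr2 with 1 tRNA gene between, and the mt-Nd1 to mt-Rnr2 ratio ran from 1.74 to 2.31 over the PBS and 5 µM samples and was 0.863 and 0.885 with 10 µM. The mt-Co1 to mt-Nd1 ratio was 5.41 and 5.09 in PBS, 5.42 and 6.81 with 5 µM and 11.2 and 9.27 with 10 µM. The mt-Cytb to mt-Nd1 ratio was 1.12 and 1.06 in PBS, 1.15 and 1.18 with 5 µM and 1.47 and 1.46 with 10 µM. In each of these the 10 µM samples stood apart from the other 4, and the mt-Nd2 to mt-Nd1 ratio moved least, from 0.344 to 0.397 over all 6. By level in PBS, the order of mt-Co1 and the genes outside the copied stretch was mt-Co1, mt-Cytb, mt-Nd1, mt-Nd5, mt-Rnr2, mt-Rnr1, mt-Nd2 and mt-Nd6, with no overlap between neighbours. At 10 µM mt-Rnr2 and mt-Nd5 overlapped, at 170 to 177 FPKM and 171 to 174 FPKM, and both stood above mt-Nd1.

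Between 5 µM and 10 µM, 7 protein genes were called lower (mt-Nd1, mt-Nd2, mt-Nd4, mt-Nd5, mt-Nd6, mt-Cytb and mt-Co1), from -1.21 on the log2 scale for mt-Nd1 to -0.47 for mt-Co1, as was mt-Rnr1 at -0.35. Whether the second dose step differed from the first was tested in the same fit, and 0 of the 25 genes passed, beside 5.36% of all tested genes. At an unadjusted p under 0.05, 5 genes had a more negative second step (mt-Nd1, mt-Nd2, mt-Nd4, mt-Nd5 and mt-Cytb). The second step was less negative for 2 genes, mt-Rnr1 and mt-Tq. Both 5 µM samples of mt-Tq were at 0, so its second step could not be negative, and without it 1 gene was left. With voom on the recovered fragments, 1 gene was called in each direction. Among rRNA and protein genes outside the copied stretch, the lowest and highest differences between the steps were -0.64 ± 0.18 for mt-Nd1 (adjusted p = 0.0963) and 0.54 ± 0.14 for mt-Rnr1 (adjusted p = 0.0835). Those of the tRNA genes ran from -0.94 to 1.88.

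How firmly these calls stood differed between the doses. At 10 µM against PBS, 10 of the 13 calls held in every fit that left out 1 sample, namely both rRNAs, mt-Nd1, mt-Nd2, mt-Nd4, mt-Nd5, mt-Nd6, mt-Cytb, mt-Co1 and mt-Te. mt-Co2 lost its call without PBS replicate 1, PBS replicate 2 or 10 µM replicate 2 (adjusted p from 0.0892 to 0.0979). At 5 µM, 2 of the 9 calls held in every such fit, those of mt-Rnr1 and mt-Nd6. Without PBS replicate 1 the calls of mt-Rnr2, mt-Nd5, mt-Nd2, mt-Cytb and mt-Co1 were lost, at adjusted p from 0.0591 to 0.103. Without PBS replicate 2 those of mt-Nd5, mt-Nd2, mt-Tq, mt-Nd1, mt-Cytb and mt-Co1 were lost, at 0.0572 to 0.108. Without 5 µM replicate 2, mt-Rnr2, mt-Nd5, mt-Tq and mt-Co1 were lost (0.0634 to 0.0827), and without 5 µM replicate 1, mt-Tq and mt-Co1 (0.0787 and 0.102). Between the doses, 5 of 9 calls held throughout (mt-Nd1, mt-Nd2, mt-Nd5, mt-Nd6 and mt-Cytb), while that of mt-Rnr1 was lost in each of the 6 fits, at 0.0502 to 0.122. The calls of mt-Nd4 and mt-Co1 between the doses were both lost without 5 µM replicate 2, mt-Nd4 was also lost without 10 µM replicate 2 and mt-Co1 without 5 µM replicate 1, at adjusted p from 0.0538 to 0.0814. mt-Te lost that call in every fit except the one without 10 µM replicate 2, at 0.0676 to 0.183.

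The 22 tRNA genes, 59 to 75 bases long, carried few fragments. In all 6 samples together 1 gene, mt-Ts1, held 77.2% of tRNA fragments, mt-Tw 9.25% and mt-Tp 6.25%. For 7 of the genes every sample was listed at 0, and 12 did not pass the filter. Of the 10 tested, 6 lie on the minus strand, on which 8 of the 22 lie. The 3 tRNA genes with most fragments are printed with the anticodon, the bases that pair with the codon, in capitals; they serve serine, tryptophan and proline.
mt-Ts1: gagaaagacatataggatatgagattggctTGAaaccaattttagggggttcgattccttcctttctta
mt-Tw: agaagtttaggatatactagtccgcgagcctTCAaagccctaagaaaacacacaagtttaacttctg
mt-Tp: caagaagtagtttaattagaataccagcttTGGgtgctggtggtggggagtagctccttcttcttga
These are the gene sequences at chrM:6870-6938 (minus strand), chrM:4950-5016 (plus strand) and chrM:15356-15422 (minus strand) of GRCm38. mt-Ts1 lies on the strand opposite to mt-Co1 and meets its end, and since no use of strand is stated, fragments of the 2 genes over these bases cannot be told apart.

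mt-Ts1 was at 157 and 224 FPKM in PBS, 99.6 and 154 with 5 µM and 83.9 and 102 with 10 µM, from 140 to 437 fragments a sample. PBS stood above both doses without overlap, the doses overlapped, and the log2 change was -0.60 ± 0.25 at 5 µM (adjusted p = 0.134) and -1.01 ± 0.25 at 10 µM (adjusted p = 0.0202). mt-Tw was at 25.5 and 24.2 FPKM in PBS, 18.7 and 9.69 with 5 µM and 15.4 and 8.94 with 10 µM, and missed the threshold at 10 µM (log2 change -1.02, adjusted p = 0.0513) although all treated samples were below PBS. mt-Te, a glutamate tRNA with 0 to 9 fragments a sample, was at 3.23 and 4.603 FPKM in PBS, 2.20 and 3.14 with 5 µM and 0 and 1.02 with 10 µM, and was called lower at 10 µM (log2 change -1.78 ± 0.35, adjusted p = 0.00828). mt-Tq, a glutamine tRNA, was at 1.05 and 2.49 FPKM in PBS, 0 in both 5 µM samples and 0 and 0.496 at 10 µM. It entered the test only through its PBS samples, which held 2 and 5 fragments, so its calls at both doses rest on few fragments; at 10 µM the call was lost without PBS replicate 2 and without 10 µM replicate 1 (adjusted p of 0.0987 and 0.111). The call of mt-Ts1 was lost without PBS replicate 2 or either 10 µM replicate, at 0.0883, 0.0959 and 0.0507. The other 6 tested tRNAs were not called in any comparison. mt-Tp ran from 3.09 to 16.6 FPKM over the samples, mt-Ty from 3.33 to 7.54, mt-Ta from 0 to 5.11, mt-Tm from 0 to 2.05, mt-Tt from 0.526 to 1.66 and mt-Td from 0 to 1.51. mt-Tm was the 1 member of the 25 that was higher in both samples of a higher dose than in both of a lower one, at 1.20 and 1.02 FPKM at 10 µM against 0 and 0 at 5 µM, beside 37.7% of all genes, but its PBS samples were at 0 and 2.05. A fixed list meant for RNAs without long poly(A) tails takes in the histone genes whose symbols start with Hist. Whether each listed RNA lacks such a tail was not checked. Of its 84 rows, 9 passed the filter, beside 12722 of all 54446 rows. Listed at 0 in every sample were 20 of the 84, among them Rmrp, Rpph1 and Rn7s1. Their summed level was 63.2 and 59.8 FPKM in PBS, 76.7 and 67.4 with 5 µM and 109.1 and 108.9 with 10 µM. Of the 9 tested, 7 were called higher at 10 µM against PBS and 1 lower, beside 28.5% and 22% of all tested genes. Hist1h1c, a histone gene of the list, was at 10.1 and 8.46 FPKM in PBS and 32.5 and 31.5 with 10 µM. The part of such RNAs in the results was not tested.

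The chromosome 1 copies were themselves listed with values, and their replicates differed by 1.01-fold to 1.85-fold. Their summed level was 235 and 235 FPKM in PBS, 247 and 213 with 5 µM and 115 and 117 with 10 µM. The 5 µM samples lay on either side of the PBS samples and the 10 µM samples were below both. Gm28661, the copy of mt-Co2, was at 40.3 and 43.4 FPKM in PBS, 49.9 and 39.0 with 5 µM and 19.0 and 22.3 with 10 µM. Gm10222, the copy of mt-Nd4l, was at 9.35 and 12.1 FPKM in PBS, 8.52 and 9.45 with 5 µM and 2.81 and 2.996 with 10 µM, and in PBS replicate 1 it was above mt-Nd4l itself, which was at 3.25. All 7 copies were called lower at 10 µM against PBS and against 5 µM, from -1.58 for Gm10222 to -0.73 for Gm29216 on the log2 scale against PBS. At 5 µM against PBS 1 of the 7 was called, Gm28439, the copy of mt-Nd4 (log2 change -0.29, adjusted p = 0.0251). These levels cannot be assigned to transcription of chromosome 1, since 97.4% to 100% of the length of each copy is covered by 31-base words that the mitochondrial genome also holds.

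**Figure D4:**
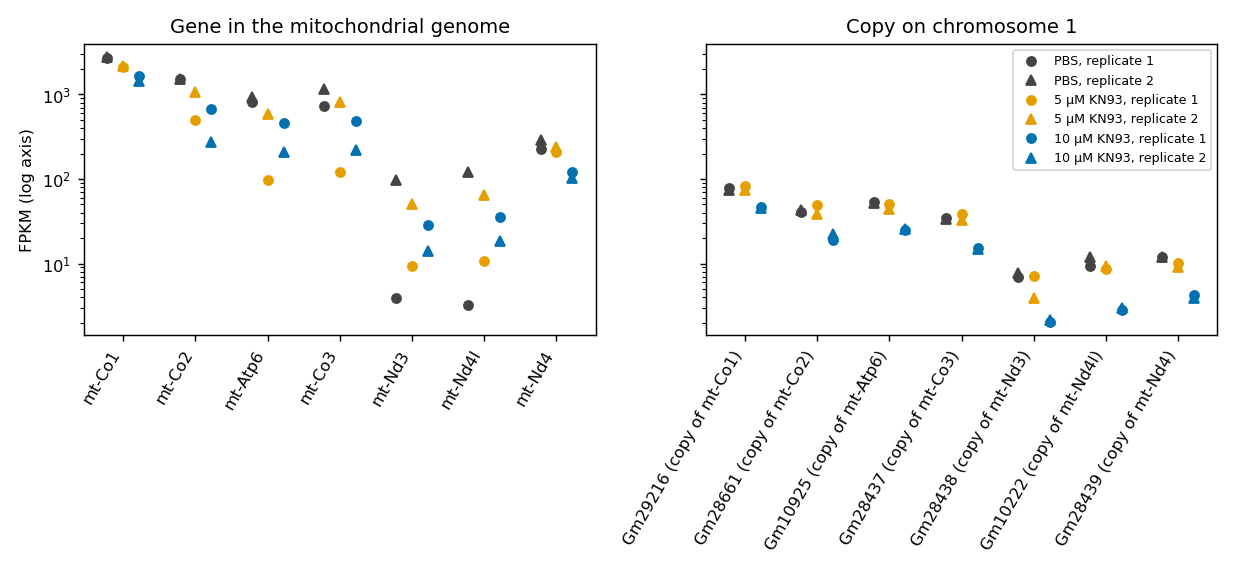
FPKM on a shared log axis of 7 mitochondrial genes (left) and of their copies on chromosome 1 (right) in the 6 samples, circles for replicate 1 and triangles for replicate 2. The 10 µM samples are the lowest for every copy, while mt-Co2, mt-Atp6, mt-Co3, mt-Nd3 and mt-Nd4l show wide gaps between replicates.

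Nuclear genes that act on mitochondrial DNA and RNA are described at 10 µM against PBS, where 28.5% of all tested genes were called higher and 22% lower, with a median log2 change of 0.05. The list medians were 0.20 for transcription, 0.21 for RNA processing, 0.30 for RNA stability and 0.36 for upkeep of mitochondrial DNA. Polrmt, the mitochondrial RNA polymerase, was at 7.19 and 7.66 FPKM in PBS and 7.03 and 8.24 at 10 µM and did not pass (log2 change 0.03, adjusted p = 0.764), and its direction flips with median-of-ratios scaling (-0.013). Of 8 tested genes for transcription, 3 rose, namely Tfam (0.33 on the log2 scale), Tefm (0.30) and Mrpl12 (0.21), and 1 fell, the initiation factor Tfb2m (-0.35). Of 29 genes for processing and modification of mitochondrial RNA, 15 rose and 0 fell (also 0 at an unadjusted p under 0.05), with Hsd17b10, a subunit of the enzyme that cuts the 5′ ends of mitochondrial tRNAs, at 21.6 and 22.8 FPKM in PBS and 36.7 and 40.7 at 10 µM. Fastk and Nsun2 rose by 0.55 and 0.50 on the log2 scale. Of 9 genes for RNA stability and decay 6 rose and 0 fell (also 0 unadjusted), among them Lrpprc, which stabilizes mitochondrial messenger RNAs, at 7.07 and 7.37 FPKM in PBS and 10.1 and 9.77 at 10 µM (log2 change 0.41 ± 0.05, adjusted p = 0.0016). Of 16 genes that replicate or maintain mitochondrial DNA, 9 rose and 1 fell (Polg, -0.22), with Top1mt, the mitochondrial topoisomerase, at 0.73, Atad3a at 0.51 and Rnaseh1 at 0.46.

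The genes of mitochondrial translation and of complex assembly had list medians of 0.16 to 0.23 on the log2 scale in the same comparison, and their counts too stand beside 28.5% of all tested genes called higher and 22% lower. Of 77 mitochondrial ribosomal protein genes 34 rose, with Mrpl24 at a log2 change of 0.41, and 4 fell (Mrps21, Mrpl18, Mrpl28 and Mrpl42, from -0.31 to -0.22). Of 13 translation factors 6 rose and 0 fell (also 0 unadjusted), among them Taco1, which activates translation of mt-Co1, at 6.53 and 6.94 FPKM in PBS and 9.60 and 10.1 at 10 µM. Of 21 aminoacyl-tRNA synthetases and related enzymes 9 rose and 0 fell (also 0 unadjusted), with Gars at 0.50. Of 38 assembly factors for the complexes that hold mitochondrially encoded subunits 17 rose, with Ecsit at 0.58 and Surf1 at 0.44, and 1 fell (Tmem70, -0.35). The nuclear regulators were split, with Esrra, Ppargc1b and Pprc1 higher (0.20 to 0.32) and Yy1, Myc and Gabpa lower (-0.46 to -0.17) of 9 tested. These counts depended on single samples: the 34 ribosomal protein genes became 16 without PBS replicate 1 or 10 µM replicate 2 and 18 without PBS replicate 2, and the 15 RNA processing genes became 7 without PBS replicate 1 and 9 without 10 µM replicate 2. The translation factors and synthetases fell to 2 higher calls each without PBS replicate 2, the assembly factors to 9 without PBS replicate 1, and the calls of Tfam, Mrpl12, Myc and Ppargc1b were lost without either PBS sample or without 10 µM replicate 2.

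The nuclear partners of the mitochondrially encoded subunits were called in both directions for complexes I, III and IV, and only lower for ATP synthase. Their counts stand beside 22% lower and 28.5% higher of all tested genes, and for complex I both shares were smaller than these. For complex I, 3 of 35 nuclear subunit genes fell (Ndufs8, Ndufb8 and Ndufb10) and 5 rose (Ndufs7, Ndufs3, Ndufb6, Ndufa9 and Ndufa10), with a median log2 change of 0.04; the 5 rises were all lost without either PBS sample or without 10 µM replicate 2. Ndufs8, an iron-sulfur subunit with the lowest change of the list, was at 58.6 and 57.6 FPKM in PBS, 46.7 and 48.7 with 5 µM and 30.2 and 32.5 with 10 µM (log2 change -0.87 ± 0.05 at 10 µM, adjusted p = 0.000137). For complex III, 1 of 9 fell (Uqcr11, -0.32) and 2 rose (Uqcrq, 0.39, and Uqcrc2, 0.21), each lost in at least 2 of the fits that left out a sample. For complex IV, 4 of 12 fell, with Ndufa4, a subunit of that complex despite its name, at -0.81, Cox6b1 at -0.31, Cox5a at -0.29 and Cox6c at -0.26, and 1 rose (Cox7a2, 0.20). The 4 became 2 without PBS replicate 1, and the rise was lost without either PBS sample or without 10 µM replicate 2. For ATP synthase, 8 of 18 fell and 0 rose (also 0 unadjusted), with small changes such as -0.38 for Atp5j2 and -0.23 for Atp5a1 and a list median of -0.15; the count was 3 without PBS replicate 2 or 10 µM replicate 1 and 4 without PBS replicate 1. Complex II, which has no mitochondrially encoded subunit, had 1 of 4 genes lower (Sdhd, -0.24, lost without PBS replicate 2). Among 21 genes of mitophagy, the removal of mitochondria by autophagy, 11 rose and 3 fell (Fundc1, Ulk1 and Pink1). The receptor Sqstm1, which also serves other cargo, was at 134 and 144 FPKM in PBS, 273 and 246 with 5 µM and 458 and 471 with 10 µM. Genes named here because a count was 5 or fewer were chosen after their values were seen.

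**Figure D5:**
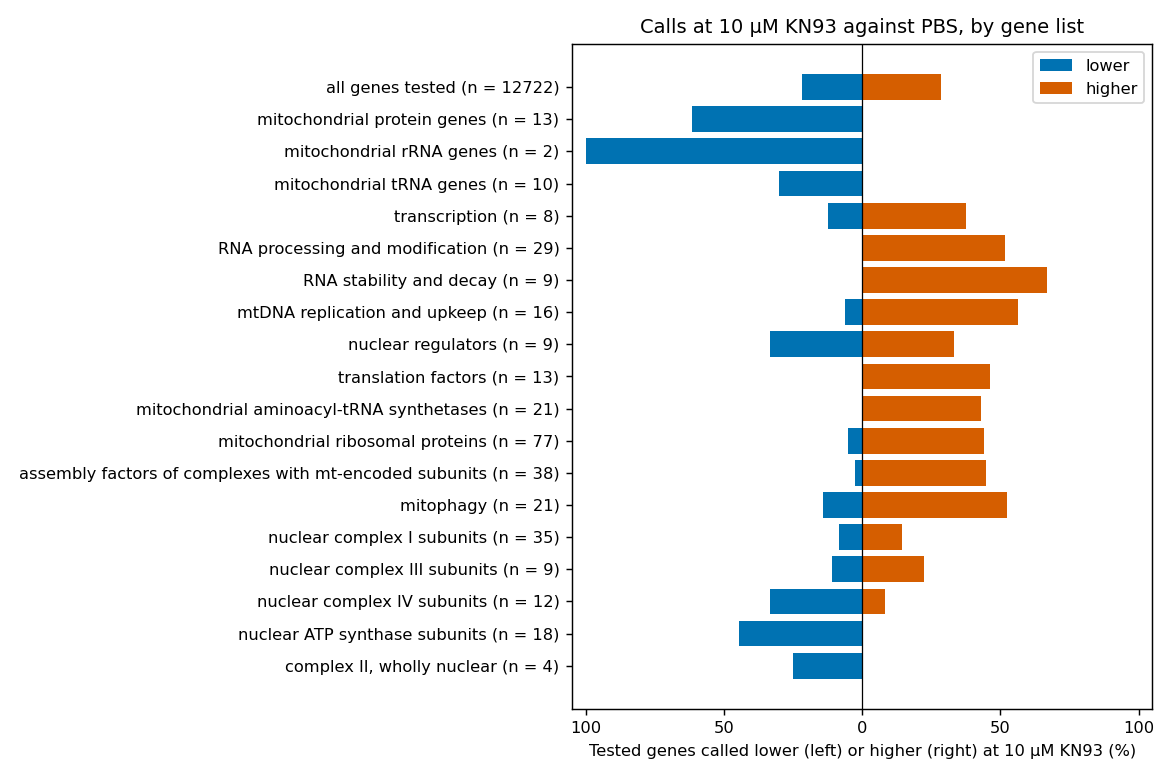
Percentage of tested genes called lower (bars to the left) and higher (bars to the right) at 10 µM KN93 against PBS, for all genes tested, the mitochondrial genes by class and each list of nuclear genes, with the number tested in brackets. Mitochondrial classes have bars to the left only, and the lists for RNA processing, RNA stability, translation factors and aminoacyl-tRNA synthetases have bars to the right only.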

How the data were processed

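The authors deposited 1 table of FPKM values, 54446 rows by 6 samples. Reads had been aligned with HISAT2 to GRCm38, per the submitters' processing notes. No counting tool, annotation, strand setting or rule for reads that match several places is given in the sources used here. Coordinates, exon lengths and transcript sequences came from GENCODE M21 (GRCm38), to which 99.93% of rows matched by gene ID. FPKM times exon length gave whole fragments, within 0.1, for 98.8% to 99.0% of values of up to 20 fragments, and implied library totals of 24.2 to 28.4 in units of 1000000 fragments. Genes that reached 1 FPKM in 2 or more of the 6 samples (12722) were fitted with limma 3.58.1 (R 4.3.3) on log2(FPKM + 1), with an intensity trend and 1 spread shared by the 3 groups (3 residual and 2.72 prior degrees of freedom). P-values are two-sided and adjusted by Benjamini-Hochberg over the 12722 genes, and a call needed an adjusted p under 0.05. The pseudocount makes changes of low genes smaller than their FPKM ratios. Pairs of groups share samples, so the comparisons are not independent.

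The mitochondrial genes and the nuclear lists were chosen with earlier results of these data known. Named were all mitochondrial protein and rRNA genes, the tested tRNA genes, the chromosome 1 copies and some of the other nuclear copies. Of each nuclear list, the up to 3 tested genes with the smallest p at 10 µM were named. Polrmt, Tfam, Lrpprc and Ppargc1b were always named. Some genes of this rule are counted without a value. Words of 31 bases of each mitochondrial gene were searched in all other GENCODE M21 transcripts on both strands. The fit was tested on simulated data. The alternatives were other pseudocounts, filters and scalings, no trend, the 2 groups alone, a replicate block, voom on the recovered fragments, a minimum log2 change of 1, and each sample left out.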

Additional observations from a re-analysis of the deposited data

How the results depend on the processing

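The count of mitochondrial genes called lower at 5 µM against PBS was 9, and became 4 with no filter, 1 with a log2 change of at least 1, and 3 to 9 when a sample was left out. At 10 µM against PBS the 13 lower calls became 10 to 17 with a sample left out, and the higher calls, 0, ranged from 0 to 1 (mt-Tm, without PBS replicate 2). Between the doses the 9 lower calls became 3 with a log2 change of at least 1 and 5 to 8 with a sample left out; the higher calls, 0, became 1 with only the 2 groups compared and 0 to 1 with a sample left out. Replicate numbers follow accession order and do not pair the samples. Over all tested genes, deviations of same-numbered samples correlated at -0.055 (PBS and 5 µM), 0.014 (PBS and 10 µM) and 0.037 (5 µM and 10 µM). Over the 25 tested mitochondrial genes alone, these correlations were 0.51, -0.36 and -0.54. With the replicate block the lower calls numbered 10, 14 and 9. Leaving out 1 sample turned the direction of these uncalled log2 changes, given as ranges. At 5 µM they were -2.07 to 2.22 for mt-Nd3, -2.12 to 2.72 for mt-Nd4l, -1.10 to 1.52 for mt-Ta, -0.56 to 0.25 for mt-Tt, -0.37 to 0.24 for mt-Tp and -0.82 to 0.51 for mt-Td. At 10 µM they were -2.21 to 2.08 for mt-Nd3, -2.20 to 2.64 for mt-Nd4l, -1.57 to 1.04 for mt-Ta, -0.53 to 1.08 for mt-Tm, -0.53 to 0.27 for mt-Tt, -0.25 to 0.28 for mt-Ty and -0.069 to 0.13 for Polrmt. Between the doses they were -1.30 to 1.02 for mt-Nd3, -1.32 to 1.16 for mt-Nd4l, -0.62 to 0.26 for mt-Tw, -0.25 to 0.30 for mt-Tt, -1.33 to 1.42 for mt-Co3, -1.33 to 0.94 for mt-Atp8 and -0.95 to 1.64 for mt-Atp6. At 10 µM, a pseudocount of 0.1 gave 0.0198 for mt-Nd3 and 0.58 for mt-Ta, voom gave 0.01 for mt-Ta, median-of-ratios scaling gave -0.026 for mt-Ty and -0.013 for Polrmt, and scaling on the other genes gave -0.0038 for mt-Ty; between the doses median-of-ratios scaling gave -0.0002 for mt-Co3. The cause of these shifts was not tested. A planned count of genes unique in the whole genome was not run. Depth limits the tRNA genes, of which all but 3 held at most 54 fragments over 6 samples.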
